A study of Mus musculus with 8 samples.

Results

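A set of 8 long RNAs with little or no protein-coding role was followed in 4T1 cells, a mouse triple-negative mammary tumour line: Neat1, Malat1, Gas5, Snhg1, Snhg5, Snhg6, Snhg8 and Snhg12. They were chosen by name, and all 8 of them were among the 28712 genes listed in the 2 deposited tables. The study asked how transcription responds to sdAb#07.81, a single-domain antibody (a small antibody fragment) selected from a library for binding to NUPR1, a stress-induced disordered nuclear protein. Both antibodies were proteins purified from HEK293F cells, built with a Tat sequence for entry into cells, the cOdc1 degradation signal of ornithine decarboxylase, and Flag and His tags, and given at 0.5 μg/ml to cells labelled as kept under 1% O2. Of the 8 samples, 6 entered the tables: 2 with the control antibody for 48 h (sdAb-Con, 48 h), 2 with sdAb#07.81 for 48 h and 2 with sdAb#07.81 for 24 h. The 2 samples of the group Con were not analysed here. No 24 h sample with the control antibody was among the samples, so the difference between 24 h and 48 h of sdAb#07.81 holds both the longer exposure and the longer culture, which cannot be told apart.

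Neat1 is the scaffold of paraspeckles, nuclear bodies built of RNA-binding proteins around its long form. Malat1 lies next to Neat1 and is an abundant RNA of nuclear speckles, where splicing factors gather. Gas5 and the Snhg genes are host genes: small nucleolar RNAs (snoRNAs), which guide chemical modification of ribosomal RNA, are cut from their introns. The spliced exons that remain enter a gene count, and in Gas5 and several other hosts these are degraded by nonsense-mediated decay while being translated. Annotated exons together cover 2969 of the 3011 bases spanned by Snhg1 and 853 of 860 by Snhg8, so a count can also hold unspliced RNA. The cover is far lower in Snhg5 (1730 of 28295) and Snhg6 (1146 of 87590). Many hosts begin, like mRNAs of ribosomal proteins, with a 5′ terminal oligopyrimidine tract, a run of C and T at the start site that ties their translation and stability to growth signals.

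The starts of 6 of the 8 RNAs, taken from RefSeq (GRCm38.p6), show where the hosts resemble each other. Each line gives 5 bases before the annotated start and 25 from it onward, 5′ to 3′, with the longest run of C and T in capitals. Neat1 and Snhg6 had no entry.
Gas5, upstream start, chr1:161034596-161034625, plus strand: CCCgcgagctcgacagcccggagccaaagg
Gas5, downstream start, chr1:161035161-161035190, plus strand: tcagCCTTTCggagctgtgcggcattctga
Snhg1, chr19:8723482-8723511, plus strand: tcggcctcaTTTTTCCTTgttcggggtaag
Snhg5, chr9:88522873-88522902, minus strand: gaaccgggctcgTTCTTTTacgacggagcc
Snhg8, chr3:123508312-123508341, minus strand: gaagTCTCTTTggctgcgatccgcctacga
Snhg12, chr4:132308673-132308702, plus strand: agTCCTTTCTCgcttcatccgcggtccctg
Malat1, chr19:5802648-5802677, minus strand: tgcgtcaggcaTTCaggcagcgagagcaga

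The 5 hosts with an entry had a start with a run of 6 to 9 pyrimidines. It reached 9 bases in Snhg1 and Snhg12, 7 in Snhg5 and Snhg8, and 6 at the downstream start of Gas5. The upstream start of Gas5 and the start of Malat1 held none longer than 3. Such runs are common: of 32851 annotated mouse starts, 26.1% held a run of at least 6 pyrimidines in the same window, 16.3% one of at least 7 and 6.69% one of at least 9. In Snhg8, Snhg12 and the downstream start of Gas5 the run covered the annotated first base. These matches describe the annotation, and no start site was measured here.

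The deposited tables give 1 mean per gene and table, not values per sample. That mean, printed to 15 digits, was resolved into the whole reads of each library, with 1 possible answer for 28598 genes (99.6%), including 7 of the 8 RNAs. Values below are these reads divided by a library size factor (normalized reads). The 6 libraries held 15081344 to 18085572 reads in the genes kept, with size factors of 0.914 to 1.09. Their groups follow from the names of the tables in which they occur, since the libraries of sdAb#07.81 (48 h) are in both. The 2 libraries of a group are called a and b, and the labels' sample numbers could not be attached to them. Nothing says whether they came from separate cultures, so p-values measure the spread between these libraries, which may be technical. Libraries of 1 group correlated at 0.988 to 0.992 over 10306 genes. Epithelial markers (Epcam, Krt8, Krt18, Cdh1) summed to 37126 to 44594 normalized reads in every library. Of the 5 immune markers listed, Cd68 alone reached the test, at 237 to 1041 normalized reads, lowest at 24 h, while Ptprc stayed at or below 4.4. The 3 fibroblast markers summed to 182.6 to 256.5 in 5 libraries and to 44.0 in library b of sdAb#07.81 (24 h). Their part in the results was not tested.

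The authors' means, pooled over the 2 groups of a table and not divided by length, ranked Malat1 highest of the 8 RNAs, at 152 of 27051 genes in the 48 h table and 111 of 27337 in the time table. Within sdAb-Con (48 h) the mean of Gas5, 9602 normalized reads, was above that of Malat1, 8476. Their libraries overlapped, at 9605 and 9599 for Gas5 and 9815 and 7137 for Malat1, the latter from 1 of 2 possible sets of reads. Gas5 ranked 283 and 688, Snhg1 484 and 925, Snhg5 784 and 1503, Snhg12 1340 and 2965, and Snhg8 1464 and 3108. Neat1 moved the other way, from rank 2257 to rank 454. Snhg6 had the lowest ranks of the 8 in these means, 5203 and 6295. Both tables contain the 2 libraries of sdAb#07.81 (48 h).

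Per kilobase of exon, which allows genes to be compared with each other, the order of the levels differed between the groups. In sdAb-Con (48 h), Snhg8 led at 3800 normalized reads per kilobase, followed by Snhg5 at 2740, Gas5 at 2550, Snhg1 at 2450, Snhg12 at 1440, Malat1 at 1210, Snhg6 at 702 and Neat1 at 89.4. The libraries of neighbours in that order overlapped only for Snhg12 and Malat1. In sdAb#07.81 (48 h), Malat1 led at 2660 and overlapped with Snhg8 at 2410, and the rest followed in the order Snhg5, Gas5, Snhg1, Snhg12, Snhg6 and Neat1, at 1990 down to 88.9. In sdAb#07.81 (24 h), the levels were closer together. Malat1 at 1630, Snhg1 at 1260 and Snhg5 at 1170 each overlapped with the next in order. Snhg8 followed at 940, then came Gas5 at 701, Neat1 at 491 and Snhg6 at 370, and Snhg12 was lowest at 312. The libraries of Neat1 and Snhg6 overlapped there. The place of Malat1 rests on 1 of 2 possible sets of reads, given with the 48 h comparison. In the second set its libraries held 462 and 1600 per kilobase in sdAb-Con (48 h), overlapping with Snhg6 and Snhg12, and 883 and 4790 in sdAb#07.81 (48 h), overlapping with 5 of the 6 hosts. A length summed over all annotated exons understates the level of a gene whose short isoform prevails, as can happen for Neat1 and for hosts. The summed length is 3760 bases in Gas5 and 2402 in Snhg12, where the longest transcripts have 2556 and 1538. In Snhg8 the values are 853 and 776. The order above depends on these lengths.

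**Figure D1:**
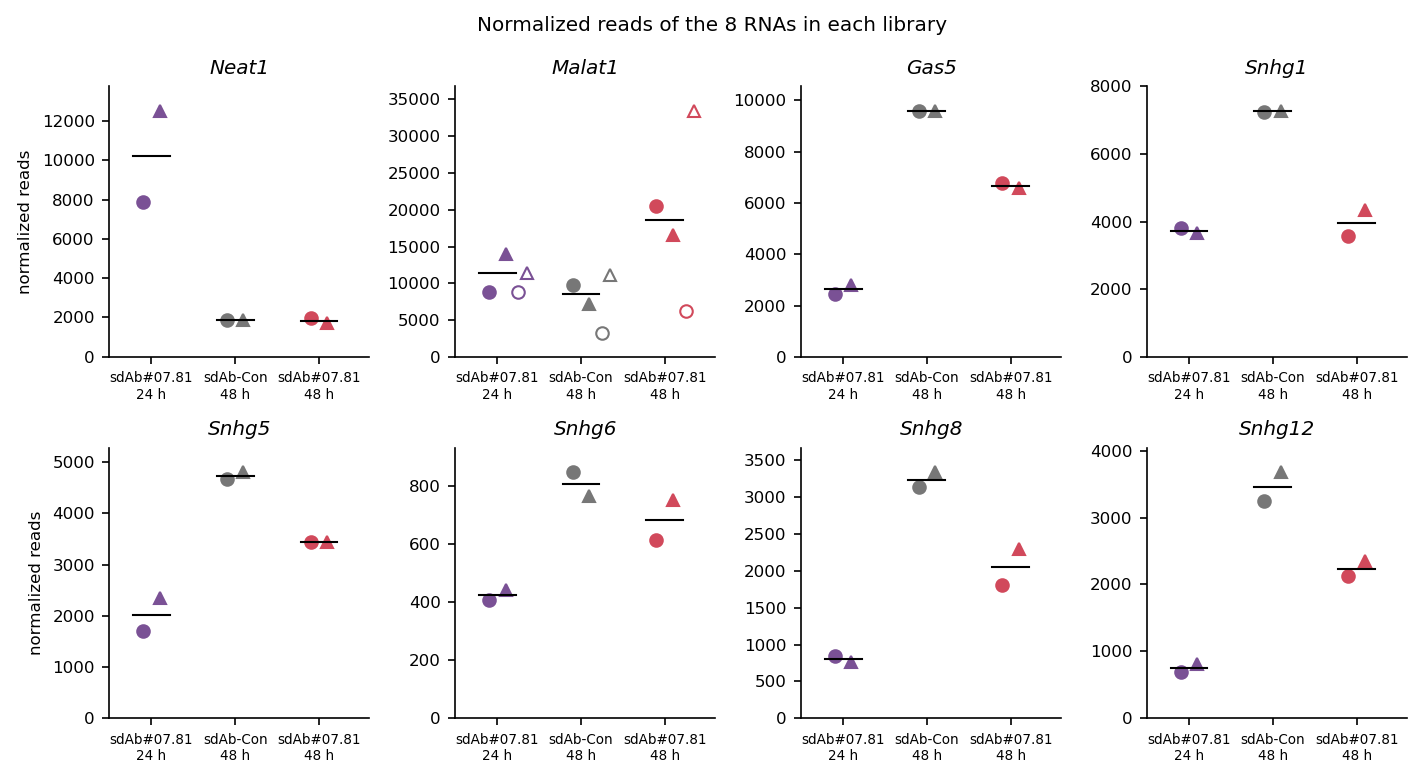
Normalized reads of each RNA (vertical axes, from 0, a scale for each gene) in the 3 groups; circles are library a, triangles library b, and bars are group means. The 6 host RNAs were highest in sdAb-Con (48 h), Neat1 was highest at 24 h, and open symbols beside Malat1 give its second possible set of reads.

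At 48 h, 5 of the 6 hosts were lower with sdAb#07.81 than with sdAb-Con, with log2 differences of -0.88 to -0.46, and Neat1 and Snhg6 did not pass the test. Malat1 had a difference of 1.14 that passed with the set of reads whose replicates lay closest and not with the other possible set (adjusted p = 0.121, limma), in which the groups overlap. Over all 13941 genes tested (limma on log2 of normalized reads + 0.5, Benjamini-Hochberg adjusted p under 0.05), 10.1% were called, 3.62% lower and 6.47% higher. The median log2 difference was -0.58 over the 6 hosts and -0.02 over all genes.

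Snhg1, host of a cluster of box C/D snoRNAs, showed the largest difference among the hosts. It stood at 7240 and 7285 normalized reads in sdAb-Con (48 h) and at 3568 and 4344 in sdAb#07.81 (48 h). The groups did not overlap, and the log2 difference was -0.88 (SE 0.115, 95% interval -1.12 to -0.64, adjusted p = 0.000211, limma). Snhg1 passed the test whichever library was left out, with log2 differences of -1.03 to -0.75.

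Gas5, whose exons are a classic substrate of nonsense-mediated decay, varied little within groups. Its libraries stood at 9605 and 9599 with the control antibody and at 6765 and 6587 with sdAb#07.81, again with no overlap. The log2 difference was -0.52 (SE 0.110, interval -0.75 to -0.29, adjusted p = 0.00626, limma). Snhg8, which hosts a single H/ACA snoRNA, had 3137 and 3340 against 1806 and 2300 normalized reads. Its log2 difference was -0.67 (SE 0.126, adjusted p = 0.00327, limma). Snhg12 had 3242 and 3678 against 2130 and 2344, a log2 difference of -0.63 (SE 0.120, adjusted p = 0.00363, limma). Snhg5 had 4664 and 4808 against 3443 and 3439, a log2 difference of -0.46 (SE 0.130, adjusted p = 0.0321, limma). In all of these hosts both control libraries lay above both sdAb#07.81 libraries. Such separation, here and below, is no test of its own with 2 libraries a group. Its share over all genes is not given here, and Snhg6 showed it at 48 h without passing.

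Snhg6 had 846 and 763 normalized reads with the control antibody and 613 and 750 with sdAb#07.81. The libraries did not overlap, but its difference of -0.24 did not pass the test (interval -0.53 to 0.04, adjusted p = 0.271, limma). A reduction as large as that of Gas5 lies just inside this interval.

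The calls at 48 h rest on few libraries. Snhg5 lost its call without any 1 of the 4 libraries compared. Without library b of sdAb-Con (48 h), Snhg1 and Malat1 were the only 2 of the 8 RNAs called, and without library a of sdAb#07.81 (48 h) there were 3, with Gas5 added. Without a trend of variance with level, or with no filter on low values, limma called none of the 8 RNAs, although 6 had an unadjusted p under 0.05 in each fit, and 1 and 7 genes were called in all.

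Malat1 had 9815 and 7137 normalized reads in sdAb-Con (48 h) and 20506 and 16598 in sdAb#07.81 (48 h). The log2 difference was 1.14 (SE 0.179, interval 0.77 to 1.51, adjusted p = 0.000908, limma). Malat1 is the 1 RNA whose mean could be resolved in 2 ways. The values above are those in which the libraries of a group lay closest, within 1.58-fold, so the spread behind this p was made small by that choice. The second set gives 3224 and 11139 against 6169 and 33476, up to 5.43-fold apart within a group. With it the difference was 1.26 and did not pass the test (SE 0.514, adjusted p = 0.121, limma). The group means with sdAb#07.81 were higher in both sets, 18552 against 8476 and 19822 against 7181.

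Neat1 had 1861 and 1855 normalized reads with the control antibody and 1955 and 1737 with sdAb#07.81. The libraries overlapped and the log2 difference was -0.01 (interval -0.34 to 0.31, adjusted p = 0.972, limma).

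The differences at 48 h also moved with transcript length over all genes. Genes whose longest transcript is under 1 kb had a median log2 difference of -0.27, those of 1 to 2 kb -0.22, those of 2 to 4 kb -0.07 and those above 6 kb 0.29 (Spearman's rho = 0.447 across 13780 genes, which share their libraries). The hosts are short, with longest transcripts of 776 (Snhg8) to 2728 bases (Snhg1), whereas Malat1 has 6983 and Neat1 20771. These are the longest annotated forms, and which form prevails in these cells was not measured. Removing the trend at the annotated length takes out too little for a host whose shorter form prevails, since shorter genes had lower medians. The 500 genes nearest in length to Snhg8 had a median of -0.26, those nearest to Gas5 -0.10, and those nearest to Neat1 0.43. With the trend in length removed, Snhg1 had a difference of -0.8 (adjusted p = 0.000438, limma) and Gas5 had -0.43 (adjusted p = 0.0278). Snhg12 at -0.43 and Snhg8 at -0.41 remained just past the threshold (adjusted p = 0.0495 and 0.0482). Snhg5 at -0.23 no longer passed (adjusted p = 0.385), and Snhg6 was at 0.01. Malat1 had 0.89 (adjusted p = 0.00978). Neat1 then had -0.67 (adjusted p = 0.019), but the trend removed there is larger than the median of 0.43 over the 500 genes nearest to it in length, and the call rests on the fitted trend at its far end.

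**Figure D2:**
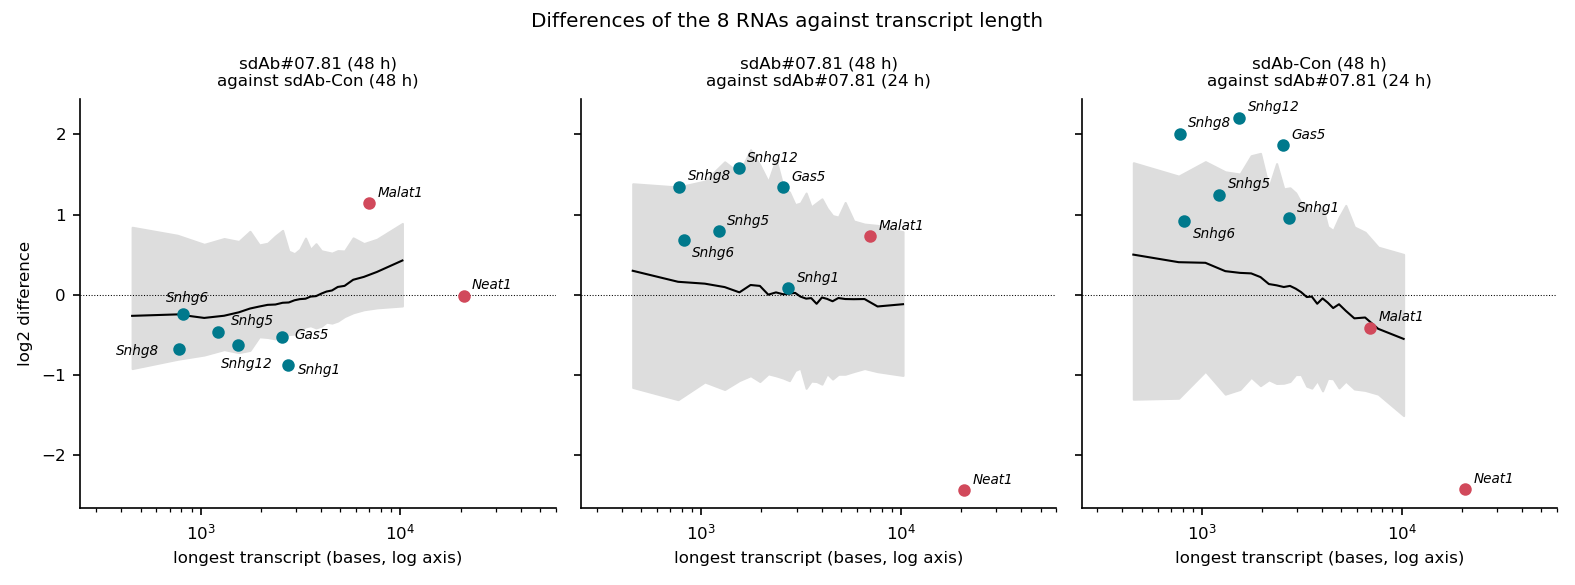
Log2 difference (vertical axis) against the longest annotated transcript in bases (log axis) for the 3 comparisons; the black line is the running median of all tested genes, grey their 5th to 95th percentile, teal points the 6 hosts and red points Neat1 and Malat1. At 48 h Snhg1 and Gas5 lie below the line for genes of their length, and Neat1 lies to the right of where the line ends.

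With sdAb#07.81, levels at 48 h and at 24 h differed more widely. The hosts were higher at 48 h in 5 of 6 cases, by 0.68 to 1.58 on the log2 scale, and Neat1 was 5.39-fold lower. Malat1 had a difference of 0.73 whose call did not hold under the second set of reads or without library a of the 24 h group. In this comparison 43.3% of the genes tested were called, 21.4% higher and 21.9% lower, against which 7 of the 8 RNAs were called, Malat1 included, and 6 with its second set of reads. The median log2 difference was 1.06 over the 6 hosts and -0.01 over all genes.

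Neat1 had 7868 and 12521 normalized reads at 24 h against 1955 and 1737 at 48 h. The 24 h libraries differed from each other by more than those of either 48 h group, and both lay far above the other 4 libraries. The log2 difference was -2.43 (SE 0.155, interval -2.75 to -2.10, adjusted p = 9.55e-10, limma), and 0.23% of the genes tested had a difference as low or lower. It was -2.77 to -2.10 when 1 library was left out and -2.29 with the trend in length removed. The higher 24 h value came from library b, in which H19, an imprinted long RNA, was at 12.4 normalized reads against 246.1 to 298.5 elsewhere and the fibroblast marker Col1a1 at 38.2 against 152 to 214.8. Without that library Neat1 still passed the test.

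Snhg12 had 689 and 809 normalized reads at 24 h against 2130 and 2344 at 48 h, a log2 difference of 1.58 (SE 0.120, adjusted p = 9.99e-09, limma). Snhg8 had 845 and 759 against 1806 and 2300 (1.35, SE 0.126, adjusted p = 1.41e-07). Gas5 had 2452 and 2816 against 6765 and 6587 (1.34, SE 0.110, adjusted p = 2.62e-08). In these hosts every 24 h library lay below every 48 h library.

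Snhg5 had 1698 and 2346 normalized reads at 24 h against 3443 and 3439 at 48 h (0.79, SE 0.130, adjusted p = 9.37e-05, limma). Snhg6 had 406 and 442 against 613 and 750 (0.68, SE 0.137, adjusted p = 0.000602). Both passed the test and neither overlapped between the groups.

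Snhg1 was the host whose levels overlapped between the times. It had 3808 and 3654 normalized reads at 24 h against 3568 and 4344 at 48 h, and the difference of 0.08 did not pass the test (interval -0.16 to 0.32, adjusted p = 0.610, limma). The intervals of the other 5 hosts begin at 0.39 or above. Whether Snhg1 differed from them was not tested. Length mattered less here (Spearman's rho = -0.128 over the same genes), and with its trend removed the 5 hosts called had differences of 0.51 (Snhg6) to 1.51 (Snhg12), all past the threshold.

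Malat1 had 8804 and 13975 normalized reads at 24 h against 20506 and 16598 at 48 h (0.73, SE 0.179, adjusted p = 0.00276, limma). Under the second set of reads the difference was 0.52 and did not pass (adjusted p = 0.433). Without library a of the 24 h group it was 0.40 (adjusted p = 0.0859). With no filter on low values and without the trend of variance with level it stayed at 0.73 and did not pass (adjusted p = 0.0876 and 0.0956).

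**Figure D3:**
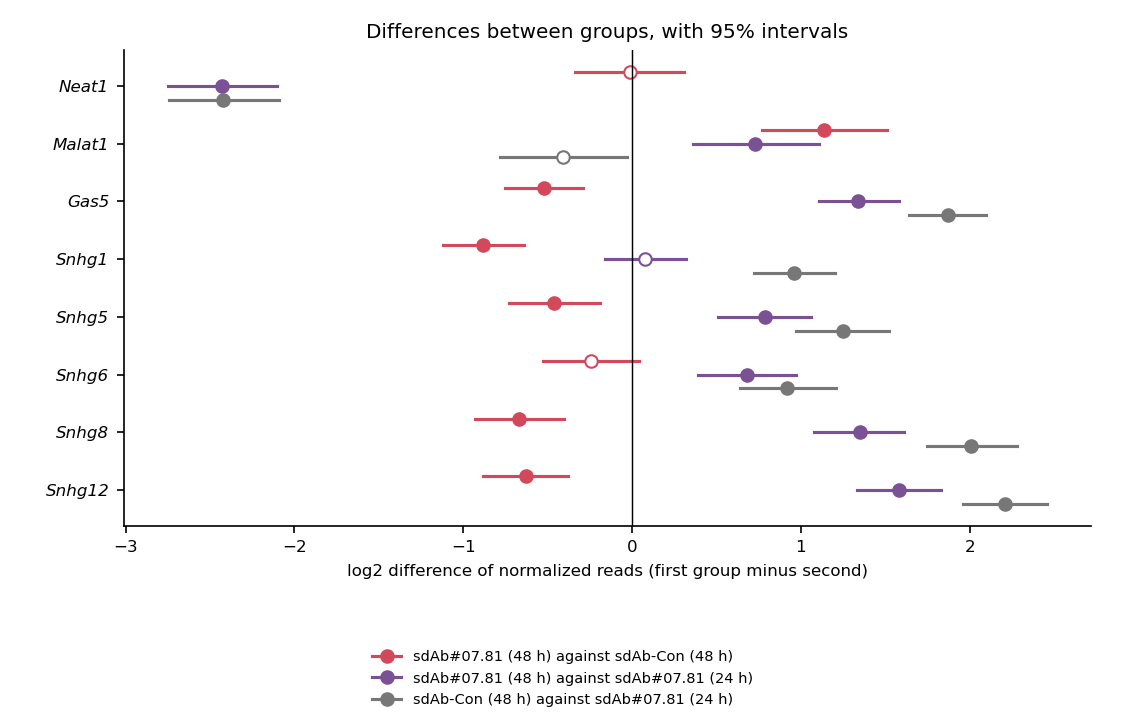
Log2 difference of normalized reads (horizontal axis) with its 95% interval for each RNA in the 3 comparisons; filled points passed an adjusted p of 0.05 and open points did not. The hosts lie left of 0 for sdAb#07.81 against sdAb-Con at 48 h and right of 0 for 48 h against 24 h, with Snhg1 near 0 in the latter, and Neat1 lies at -2.43 and -2.42 in the comparisons with 24 h.

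The control antibody at 48 h set against sdAb#07.81 at 24 h gives the distance between the outer groups, in which antibody and time both differ. It shares its libraries with the other comparisons and is no independent support for them. All 6 hosts were higher in sdAb-Con (48 h), against a background of 50.9% of genes called, 25.2% higher and 25.7% lower. Snhg12 differed by 2.21 (4.62-fold), Snhg8 by 2.01, Gas5 by 1.87, Snhg5 by 1.25, Snhg1 by 0.96 and Snhg6 by 0.92. Neat1 had -2.42. With the trend in length removed (Spearman's rho = -0.327 between length and difference), Neat1 had -1.63, Snhg6 0.50, Snhg5 0.91, Snhg1 0.87, Snhg12 1.94, Gas5 1.76 and Snhg8 1.58, and all 7 still passed. Malat1 at -0.41 did not pass the test (interval -0.78 to -0.03, adjusted p = 0.0655, limma). For all 6 hosts the mean of sdAb#07.81 (48 h) lay between those of the other groups, and for Snhg1 its libraries overlapped with those of 24 h.

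The antibody binds the NUPR1 protein, so the level of Nupr1 RNA is no check of the treatment. It had 3575 and 2998 normalized reads in sdAb-Con (48 h), 2918 and 2919 in sdAb#07.81 (48 h), and 1556 and 2136 in sdAb#07.81 (24 h). Between the antibodies at 48 h its difference of -0.17 did not pass the test (adjusted p = 0.469, limma). Against sdAb#07.81 (24 h) it was higher in both 48 h groups, by 0.68 with sdAb#07.81 (adjusted p = 0.000569) and by 0.84 with the control antibody (adjusted p = 5.13e-05).

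Other noncoding snoRNA hosts did not share 1 direction. Of 14 on the list, 11 were tested. At 48 h, Snhg16 (-0.85) and Zfas1 (-0.65) were lower with sdAb#07.81 and Snhg14, the host of an imprinted snoRNA cluster, was higher (0.51). Between the times, Zfas1 (1.29), Snhg14 (1.14) and Snhg16 (1.09) were higher at 48 h, and Snhg4 (-1.15) and Snhg17 (-0.36) lower. These 5 calls among 11 genes are near the 43.3% called over all genes, and the 3 at 48 h compare with 10.1%. With the trend in length removed, Snhg16 (-0.71) and Zfas1 (-0.54) were still called at 48 h and Snhg14 (0.27) was not, where 1.14% of all genes were lower and 2.02% higher. In all, 2 rows carry the symbol Snhg4, and the second, less abundant one had 1.27 and was called higher. The list's median log2 difference was 0.01 at 48 h and 0.02 between the times. Zfas1 and Snhg16 therefore had the signs of the 6 hosts in both comparisons, whereas Snhg3, Snhg10, Snhg11, Snhg15, Snhg20 and Dancr passed neither test.

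Protein-coding hosts were called in both directions between the times and in 1 direction between the antibodies. Of 15 on the list, 12 were tested, since the reads of Rpl5, Hspa8 and Tpt1 could not be settled. With sdAb#07.81 at 48 h, 4 were lower and none higher, where 3.62% of all genes were lower. Among them were Rack1 (-0.51), a protein of the small ribosomal subunit, and the ribosomal proteins Rps3 (-0.49) and Rpl13a (-0.47). With the trend in length removed 2 were lower, Rack1 (-0.56) and Rps3 (-0.44), where 1.14% of all genes were. Between the times 7 were higher at 48 h, against 21.4% of all genes, among them Rpl23a (0.99), Rps3 (0.66) and Rack1 (0.66). Lower were 4, against 21.9% of all genes: Nop56 (-1.57), Dkc1 (-1.25), Eif4a1 (-0.70) and Ncl (-0.51), which encode core snoRNA-bound proteins, a translation initiation helicase and nucleolin. The medians were -0.18 and 0.41. The tables held 47 rows named as snoRNAs, of which 2 reached a mean of 10, so the snoRNAs themselves cannot be read from these libraries.

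The proteins that package snoRNAs had the opposite sign to the 6 hosts between the times. Of 13 core and assembly proteins, 10 were lower at 48 h than at 24 h with sdAb#07.81 and none higher, against 21.9% lower and 21.4% higher over all genes. Nop56 (-1.57), Dkc1, the pseudouridine synthase (-1.25), Gar1 (-0.99) and Nhp2 (-0.90) differed most, and the median was -0.72. Nop56 and Dkc1 are on both lists and were already counted among the protein-coding hosts. At 48 h, 2 were lower with sdAb#07.81, against 3.62% of all genes: Nhp2 (-0.49) and Ruvbl2, an assembly ATPase (-0.39), and the median was -0.23. Neither passed with the trend in length removed (limma, 3 of the 13 with an unadjusted p under 0.05).

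Of 10 nonsense-mediated decay factors, 4 were lower at 48 h than at 24 h and none higher, against 21.9% lower and 21.4% higher over all genes. The 4 were Smg5 (-0.83), Smg9 (-0.50), the helicase Upf1 (-0.44) and Upf3b (-0.33). All 10 differences were negative, but those of Smg1 and Upf3a were only -0.02 and -0.01. With the trend in length removed these 2 were positive (0.11 and 0.05), 4 factors were still called lower, against 21.8% of all genes, and the median was -0.18. With sdAb#07.81 at 48 h only Smg1, the kinase that phosphorylates UPF1, was called, and it was higher (0.83). Its 1 call in 10 is close to the background share of 10.1%, and it was lost with the trend in length removed (0.27, adjusted p = 0.113, limma). The medians were -0.26 between the times and 0.12 between the antibodies.

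Of the 17 paraspeckle proteins, 14 had the sign of Neat1 between the times. Of the 17, 11 were lower at 48 h than at 24 h with sdAb#07.81, and Ss18l1 was higher (0.49), against 21.9% lower and 21.4% higher over all genes. They included Sfpq (-2.42), Rbm14 (-1.77) and Pspc1 (-1.68), of which Sfpq and Rbm14 are needed to build paraspeckles. Nono, the partner of Sfpq, had -0.24 and did not pass (adjusted p = 0.0871, limma). The list's median was -0.79. At 48 h, Sfpq alone was called, 1 of 17 against 10.1% of all genes, and it was higher with sdAb#07.81 (0.39, adjusted p = 0.0309, limma). Of the 3 subunits of cleavage factor I on the list, which binds RNA and promotes processing of the 3′ end of the short form of Neat1, Cpsf7 (-0.70) and Cpsf6 (-0.52) were lower at 48 h than at 24 h, and Nudt21 had 0.07. Cpsf6 was higher with sdAb#07.81 at 48 h (0.37), a call lost with the trend in length removed (0.15), whereas that of Sfpq was not (0.42, adjusted p = 0.0286, limma). The short and long forms of Neat1 share 1 count here and were not separated.

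Among 17 other long noncoding RNAs tested, 5 were higher with sdAb#07.81 at 48 h, against 6.47% of all genes, and none lower. Miat (1.78), Kcnq1ot1 (0.78), Tug1 (0.55) and Oip5os1 (0.44) led, Miat on few normalized reads: 5.7 and 3.1 in sdAb-Con (48 h) against 17.7 and 14.2. Several of these RNAs are long, and with the trend in length removed none of the 16 with a length was called, against 2.02% of all genes higher (limma, 5 with an unadjusted p under 0.05). Between the times, 4 were higher at 48 h and 4 lower, near the 21.4% and 21.9% over all genes, with H19 (2.07), Pvt1 (0.77) and Epb41l4aos (0.69) highest among the former, and Mir17hg (-1.78), Jpx (-1.64), Oip5os1 (-0.98) and Tug1 (-0.28) forming the latter. With the trend in length removed, 2 were higher and 3 lower, against 23.5% and 21.8% of all genes, and H19 (adjusted p = 0.0538), Epb41l4aos (0.45, adjusted p = 0.0738) and Tug1 (-0.18, adjusted p = 0.162, limma) did not pass. The value of H19 rests on library b of the 24 h group, in which it was nearly absent.

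**Figure D4:**
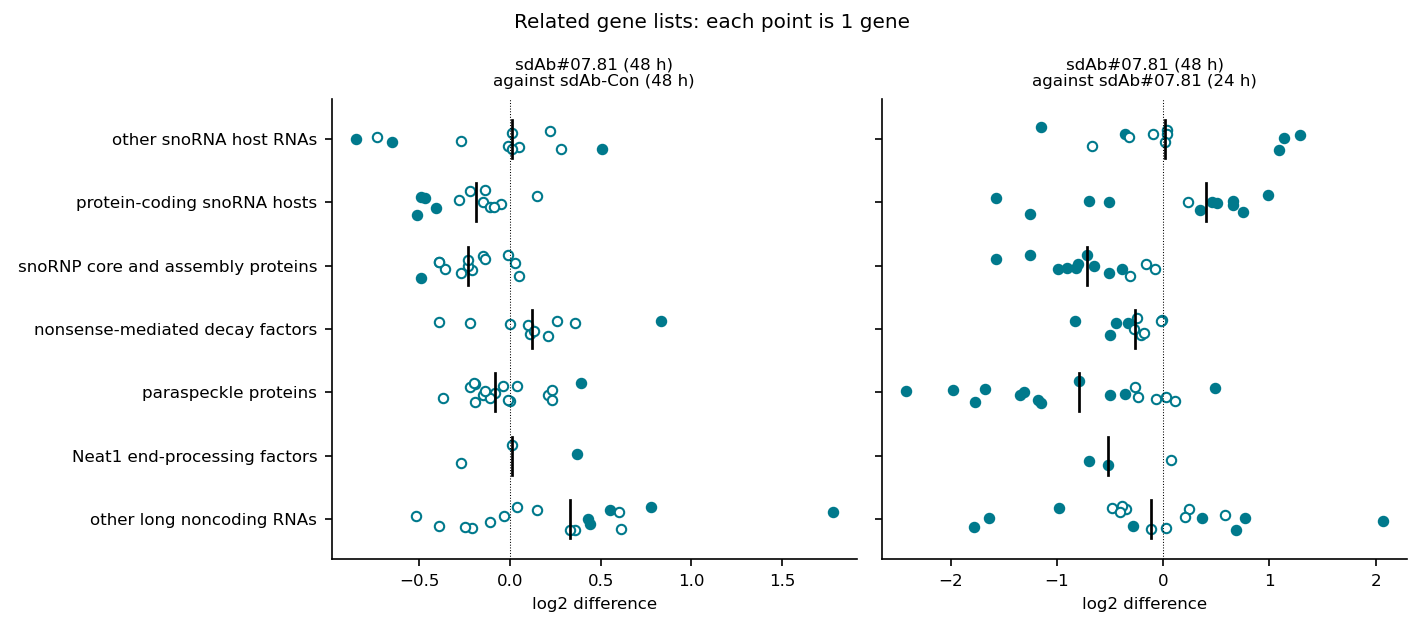
Log2 difference (horizontal axis) of each tested gene of the 7 related lists, at 48 h between the antibodies (left) and between 48 h and 24 h of sdAb#07.81 (right); filled points passed an adjusted p of 0.05 and bars are list medians. Paraspeckle and snoRNP proteins lie mainly left of 0 in the right panel, with medians of -0.79 and -0.72.

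The genes whose pattern over the 6 libraries lay nearest to Neat1, by Euclidean distance of centred log2 levels among 10306 genes with a mean of at least 100, were Tmprss11e (0.604), Srsf1 (0.678), a splicing factor, and Sfpq (0.704). Their log2 differences between 48 h and 24 h were -2.06, -1.96 and -2.42. Nearest to Gas5 were Alg12 (0.249), Hcfc1r1 (0.302) and Fkbp7 (0.314), with differences of -0.41, -0.44 and -0.46 between the antibodies and of 1.36, 1.20 and 1.57 between the times. Nearest to Malat1 were Scai (0.324), Nbeal1 (0.361) and Ikzf2 (0.431), on the set of reads first given.

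In the tables' own coordinates, for which no mouse build is named, Neat1 (ENSMUSG00000092274) is listed on the minus strand at chr19:5874736-5895898 and Malat1 (ENSMUSG00000092341) beside it at chr19:5845717-5852704. Gas5 (ENSMUSG00000053332) is at chr1:160861992-160866116, Snhg1 (ENSMUSG00000108414) at chr19:8700801-8703811 and Snhg12 (ENSMUSG00000086290) at chr4:132035932-132038762, all on the plus strand. Snhg5 (ENSMUSG00000097195) at chr9:88377321-88405615, Snhg6 (ENSMUSG00000098234) at chr1:9926809-10014398 and Snhg8 (ENSMUSG00000104960) at chr3:123301194-123302053 are on the minus strand. Gas5 overlaps Zbtb37, with a mean of 508 normalized reads, and Snhg6 overlaps Sgk3, with 455, both on the opposite strand. Whether the reads were counted by strand is not given in the sources used here, so for these 2 hosts reads from the partner cannot be told apart if they were not. How RNA was selected for the libraries is not given either, which bears on Malat1 and on the long form of Neat1, whose ends carry no poly(A) tail.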

How the data were processed

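RNA-seq of 4T1 cells was deposited as 2 annotated tables, each for 4 libraries of 2 groups. Per the labels' processing notes, the authors used cutadapt 1.9.1, HISAT2 2.0.1 and HTSeq 0.6.1. The notes name the build GRCh38.p14, which is human, whereas the tables hold mouse Ensembl identifiers. The column used is the authors' mean normalized count, a signal deposited as the mean over 4 libraries of reads divided by size factors. The authors' own comparison columns (fold changes, errors, p-values) were not used.

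The mean of a gene with a single read gives what 1 read is worth in that library, and 4 such values per table allowed each 15-digit mean to be resolved into whole reads by lattice enumeration. In all, 2 libraries occur in both tables and were taken as sdAb#07.81 (48 h), the group the tables share by name; the others followed from the table they occur in. This rests on the table names, not on expression. On simulated reads all 27122 genes with 1 solution were recovered. Of 110 genes with several solutions, 94 were kept, Malat1 included. In these the closest solution was under 2-fold within every group and the next was not. Left out were 20 genes, which held 9.55% of the summed means, 4 of them because the search for solutions was stopped. This limit was set after the data were seen: an earlier limit of 1.5 left Malat1 out. Normalized reads are on median-of-ratios size factors over all 6 libraries.

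Genes with a mean of at least 10 were tested with limma 3.58.1 (R 4.3.3; eBayes with a mean-variance trend, log2 of normalized reads + 0.5, 3 groups in 1 fit, two-sided, Benjamini-Hochberg over all 13941 genes). Differences are on that log2 scale. Lengths are from GENCODE vM21 (13780 genes, 98.8%) and start sequences from RefSeq. Named are the 8 members, up to 4 called genes per list and comparison with the largest differences together with any called against the majority, and the 3 nearest genes; others named for a count were chosen after their values were seen. Of the genes this rule names, 2 are not reported here. The members, lists and tests were chosen with earlier results of these data known. Alternatives were other pseudocounts, filters, scalings, fits and libraries left out. Another removed from each library a lowess trend of log2 level on log2 length of the longest annotated transcript, which need not be the prevailing form. It was applied to the lists after the data were seen. The test was checked on simulated data.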

Additional observations from a re-analysis of the deposited data

How the results depend on the processing

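In both comparisons with 24 h, the called hosts and Neat1 kept their direction and stayed past the threshold under every alternative without a minimum fold, whereas Malat1 did not keep its side. Between the antibodies at 48 h the number of genes called, 1406, was 7 with no filter on low values, 1 without a mean-variance trend, 2111 in the fit over the 4 libraries of the 2 groups, 158 with a log2 change of at least 1 and 436 with the length trend removed. Of the 8 RNAs, 6 were called, against 0 (6 with an unadjusted p under 0.05, limma) with no filter and 0 (6) without the trend in variance, and 1 with the minimum change. With that minimum, the counts between 48 h and 24 h fell from 6036 to 1623 genes and from 7 to 4 members, and those between sdAb-Con (48 h) and 24 h from 7099 to 2166 genes. Moderated total degrees of freedom, which add limma's prior to those of the libraries, were 7.34 with no filter and 5.54 without the trend, against 18.5. Upper-quartile scaling changed the split at 48 h from 902 higher and 504 lower to 1199 and 306, and Snhg5 (-0.40) no longer passed. Leaving out 1 library gave 180 to 2102 genes and 2 to 6 members at 48 h, 4404 to 5807 and 6 to 7 between the times, and 5188 to 6968 and 7 to 8 for the third comparison; the lone library of a group is then assumed to vary like the others. The lowest counts at 48 h were without library a of sdAb#07.81 (180 genes, 3 members) and without library b of sdAb-Con (355 genes, 2 members); 491 were called without library a of sdAb-Con. Chosen after seeing the data, the second set of reads for Malat1 left 5 members called at 48 h and 6 between the times. Causes were not tested. No member is repeated in the tables, so using all rows of a symbol changed nothing. No paired analysis was possible because the resolved libraries carry no sample number.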
